A study of Mus musculus with 5 samples.

Results

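The sites described here are estrogen receptor α (ERα) binding sites of the mouse uterus that were called after estradiol, had no vehicle peak at the same place, and lay packed together with other estradiol peaks. A site counted as gained when its estradiol peak shared no base with any vehicle peak. It counted as densely clustered when it lay in a run of at least 5 estradiol peaks, gained or not, with less than 12.5 kb between each peak and the next. On the autosomes 2039 sites met both conditions, of 13428 gained sites and 17055 estradiol peaks, and they lay in 363 clusters. Chromosome X held 185 estradiol peaks and was left out. Its largest run had 4 peaks.

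Chromatin came from the uterus of C57BL/6J mice whose ovaries had been removed 10 to 14 days earlier, and was precipitated with an antibody to ERα and sequenced. One library was made after an injection of saline vehicle and one after 250 ng of estradiol per mouse, both with tissue taken 1 hour after the injection. All animals were ovariectomized, carried no labelled genetic change, and were sampled as whole uterus, so epithelium, stroma and smooth muscle were mixed. Each condition is a single library with an unknown number of reads, so sites first bound after estradiol and sites bound below the calling threshold after vehicle cannot be told apart.

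ERα is a nuclear receptor. On binding estradiol it docks to DNA, directly at palindromic estrogen response elements or through other factors, and recruits coactivators and RNA polymerase II. In the uterus it drives the early fluid and transcription response and the later growth of the epithelium. Many transcription factors bind in groups of neighbouring sites, and the distance used here to join peaks is one often used to stitch enhancers into larger domains.

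Gained sites made up a slightly larger share of the peaks in dense clusters than of isolated peaks. Of the 2518 estradiol peaks in dense clusters, 81.0% were gained, against 78.7% of all autosomal estradiol peaks and 77.4% of the 7567 isolated peaks, those with no other estradiol peak within 12.5 kb. The rule itself uses this contrast, so the shares are given as a description. In runs of 2, 3 and 4 peaks the gained share was 79.9%, 77.3% and 80.8%. The value in runs of 4 was thus close to that of dense clusters. The excess of dense clusters over isolated peaks was 3.54 percentage points (95% interval 1.51 to 5.56). It was 0.093 points (-2.29 to 2.47) when a vehicle peak up to 500 bp away was enough to call a site prebound, and 6.96 points (5.13 to 8.78) when prebound required a shared stretch of at least 50% of each peak. Among the longer 50% of each list it was 1.64 points, with an interval that includes 0 (-1.71 to 5.00). Dense clusters held 15.2% of all gained sites (2039 of 13428). They held a similar share of all autosomal estradiol peaks, 2518 of 17055, so lying in a dense cluster is not a trait particular to gained sites. The other 479 peaks of the clusters overlapped a vehicle peak and are called prebound here.

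The clusters were mostly small, with a few large ones. A cluster held a median of 6 estradiol peaks (quartiles 5 and 8, largest 25) and a median of 5 gained sites (quartiles 4 and 6, largest 24). Of the 363 clusters, 219 had 4 to 6 gained sites, 54 had 1 to 3, and 24 had 10 or more. Those 24 clusters held 301 of the 2039 sites. The median span was 21.3 kb (quartiles 15.1 and 29.4 kb, from 2.34 to 78.5 kb), and peaks occupied a median of 9.58% of it. The packing was a median of 2.98 estradiol peaks per 10 kb. The tightest cluster, chosen after its value was seen, placed 4 gained sites and 1 prebound site in 2.34 kb of chromosome 7 from 4876147 to 4878489 (build mm9, as for all positions). Its gaps were only 84 to 420 bp and peaks covered 62.4% of it, so it may be a single broad site called as several peaks. With peaks closer than 500 bp joined, it would be 1 peak over a vehicle peak.

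Most gained sites of the clusters had prebound company. Of the 363 clusters, 251 were mixed, holding at least 1 prebound peak, and these contained 1366 of the gained sites (67.0%). The remaining 112 clusters, with 673 sites, consisted of gained sites alone. With 81.0% of cluster peaks gained, against 78.7% of all autosomal estradiol peaks, runs of 5 or more peaks will often hold a prebound one. These counts are therefore a description, not a trait particular to the clustered gained sites. A single prebound peak was found in 119 clusters, 2 in 73 clusters and 3 or more in 59. Fully gained clusters were more frequent among the small ones: 57 of 139 clusters with 5 estradiol peaks had no prebound peak, against 2 of 37 with 10 to 14 peaks and 1 of 10 with 15 or more. More peaks give more occasions to hold a prebound one, so this order follows in part from cluster size.

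**Figure D1:**
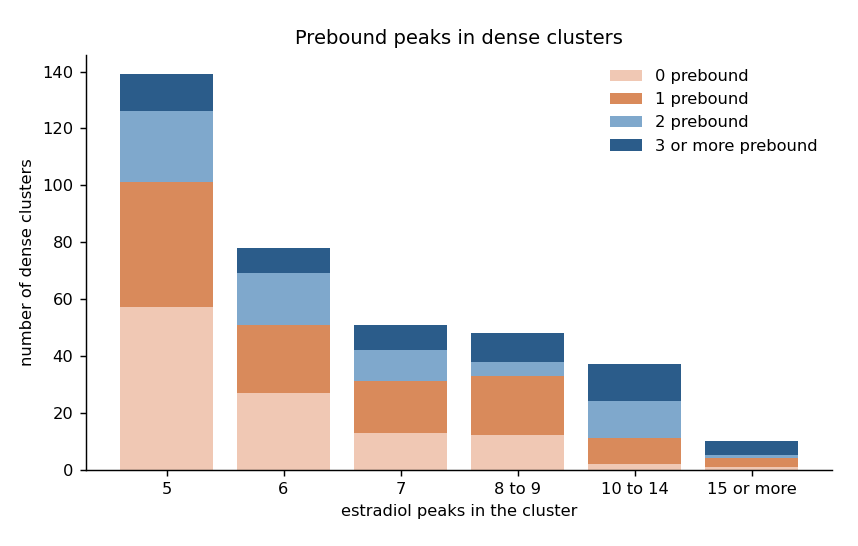
Bars give the number of dense clusters by how many estradiol peaks they hold, and colours divide each bar by the number of prebound peaks. Fully gained clusters make up 57 of the 139 clusters of 5 peaks and 1 of the 10 clusters of 15 or more.

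Mixed and fully gained clusters were packed to a similar degree. The median packing was 2.98 peaks per 10 kb (quartiles 2.37 and 3.97) in mixed clusters and 3.00 (quartiles 2.37 and 4.07) in fully gained ones. Mixed clusters held a median of 6 estradiol peaks over 23.0 kb, and fully gained clusters 5 over 18.5 kb. Of the fully gained clusters, 109 had no vehicle peak anywhere in their span, while 3 had a vehicle peak lying between the gained sites. The 109 clusters lay at a median of 57.7 kb from the nearest vehicle peak (quartiles 31.7 and 133 kb, from 0.086 to 1289 kb), and 33 of them were more than 100 kb away. Over all 2039 gained sites the median distance to a vehicle peak was 11.9 kb, with 51.5% under 12.5 kb, against 115 kb and 3.36% for the 5860 isolated gained sites. An isolated site has no prebound estradiol peak within that distance by definition, so nearly all vehicle peaks that near to it are ones without an estradiol peak.

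Clustered gained sites were longer than isolated ones. The rule sets no limit on peak length, but it reads the starts and ends of peaks for both the overlap and the gaps, so length is not fully independent of it. Median length was 265 bp (95% interval 258 to 272) over the 2039 clustered sites. It was lower in the 5529 gained sites in runs of 2 to 4 peaks, at 235 bp (233 to 239), and in the 5860 isolated gained sites, at 212 bp (210 to 214). The median difference between clustered and isolated gained sites was 53 bp (95% interval 45.7 to 60.3, with every peak taken as independent). The mean lengths were 293 bp ± 140 (SD, n = 2039 sites) and 227 bp ± 90.1 (SD, n = 5860 sites), a difference of 66.8 bp with a standard error of 3.33 bp when the error was summed over runs, so that peaks of one cluster were not taken as independent. Both sets of lengths come from the estradiol library, so no scaling between libraries enters, although the vehicle list decides which sites count as gained. There is no replicate library against which to check it.

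The difference lay over the whole range of lengths and was widest among long peaks. The lower quartile was 197 bp for clustered and 165 bp for isolated gained sites, the upper quartile 353 and 270 bp, and the 90th percentile 473 and 329 bp. Gained sites of 500 bp or more made up 8.39% of the clustered group (171 sites, 95% Wilson interval 7.26 to 9.67) and 1.47% of the isolated group (86 sites, 1.19 to 1.81). At the short end, 18 of the 2039 clustered and 110 of the 5860 isolated gained sites had the shortest length in the list, 100 bp. The length distributions overlapped broadly: most single clustered sites had lengths also found among isolated sites.

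**Figure D2:**
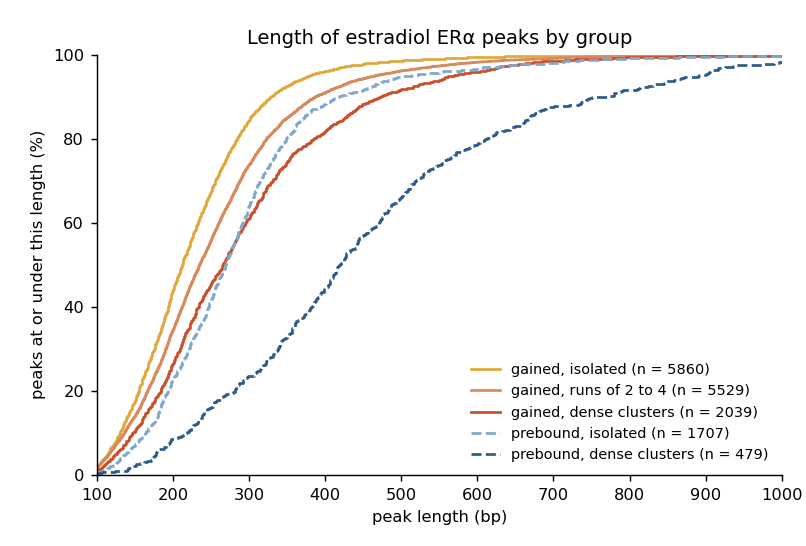
Each line gives the percentage of peaks (vertical axis) at or under a length in bp (horizontal axis) for one group of estradiol peaks, gained as solid and prebound as dashed lines. The clustered gained line (median 265 bp) lies to the right of the isolated gained line (212 bp) and close to the isolated prebound line (269 bp).

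Clustered gained sites were about as long as isolated sites that already had a vehicle peak. The 1707 isolated prebound peaks had a median of 269 bp (263 to 275), so that the clustered gained sites differed from them by -4 bp (95% interval -13.2 to 5.22). Within the clusters the prebound peaks were longer still, with a median of 419 bp (405 to 441). The clustering difference was therefore larger among prebound than among gained sites: the geometric mean length was 1.55 times that of isolated peaks for prebound and 1.25 times (95% interval 1.23 to 1.28) for gained sites, and the ratio of these ratios was 1.23 (1.17 to 1.30). A long estradiol peak meets a vehicle peak more easily than a short one, so gained and prebound lengths are not independent of the rule.

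Median length was already higher in runs too small to count as dense. The median length of gained sites was 228 bp in runs of 2 peaks, 243 bp in runs of 3 and 246 bp in runs of 4, just outside the rule. In runs of 5 peaks, just inside it, the median was 257 bp, and the intervals of these last 2 medians overlapped (238 to 253 and 246 to 269). From 6 peaks upward the medians lay between 264 and 281 bp with overlapping intervals, including 273 bp (238 to 300) for the 152 gained sites in the 10 clusters of 15 or more. No step in length was seen at 5 peaks, where the 318 runs of 4 and the 139 runs of 5 had 80.8% and 80.4% gained sites.

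**Figure D3:**
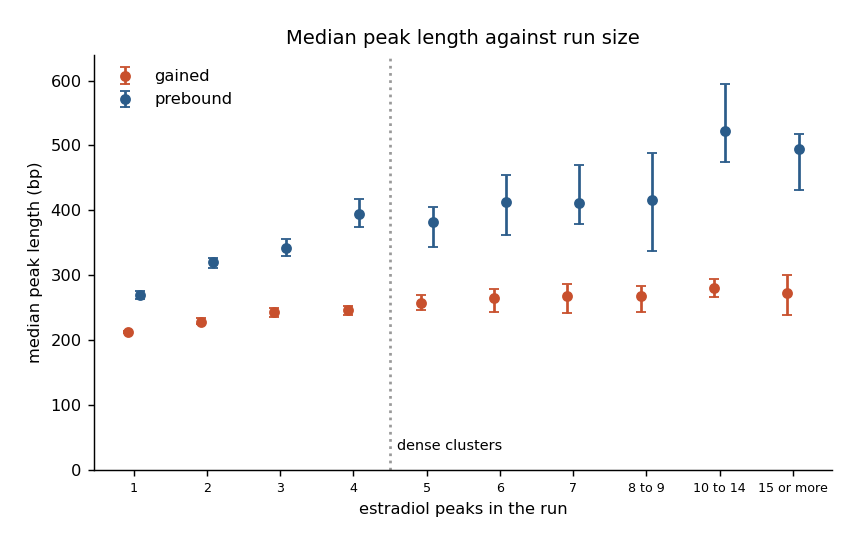
Points are median peak lengths in bp (vertical axis) of gained and prebound estradiol peaks by the number of peaks in their run (horizontal axis), and bars are exact 95% intervals of the medians. Gained sites go from 212 bp when isolated to 257 bp in runs of 5, and prebound peaks from 269 to 383 bp.

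The length of gained sites was similar in mixed and fully gained clusters, beside prebound peaks and away from them, and at the ends and inside of clusters. In mixed clusters the median was 265 bp and in fully gained clusters 266 bp, a difference of -1 bp (95% interval -15.8 to 17.4). The fully gained clusters alone therefore exceeded isolated gained sites by 54 bp (36.9 to 67.2). In mixed clusters, the 546 sites next to a prebound peak had a median of 264 bp and the 820 others 268 bp (difference -4.5 bp, -20.2 to 10.3). The 602 sites at the ends of clusters had a median of 258 bp against 269 bp for the 1437 inside (difference -11 bp, -28.9 to 4.0). These intervals include 0 and allow differences of up to 28.9 bp.

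Lengths of gained sites varied widely within clusters. In a typical cluster the longest gained site was 2.74 times the shortest (median over clusters with at least 2). After the scatter within clusters was allowed for, differences between clusters made up an estimated 0.756% of the variance of log2 length among gained sites in 360 clusters. Observed medians of single clusters with at least 5 gained sites ranged from 151 to 557 bp.

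A gained site lay about as far from a gained as from a prebound neighbour. Gaps between 2 gained sites had a median of 2451 bp (95% interval 2229 to 2693, 1437 gaps), and gaps between a gained and a prebound peak 2529 bp (2122 to 2856, 602 gaps). Gaps under 500 bp, at which a single broad site may have been called as several peaks, made up 20.5% of gained-to-gained gaps (18.5 to 22.6) and 17.8% of gained-to-prebound gaps (14.9 to 21.0). Among the 116 gaps between 2 prebound peaks they made up 30.2% (22.6 to 39.1). That interval lies above the one of gained-to-prebound gaps but narrowly overlaps the one of gained-to-gained gaps. These intervals take gaps of the same cluster as independent. In runs of 2 to 4 peaks the median gap was 2737 bp (2564 to 2921), with 21.1% under 500 bp, and over all gaps of dense clusters it was 2453 bp (2260 to 2668), with 20.2% under 500 bp. Both kinds of run are built by the same limit on gaps, so these values are a description.

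**Figure D4:**
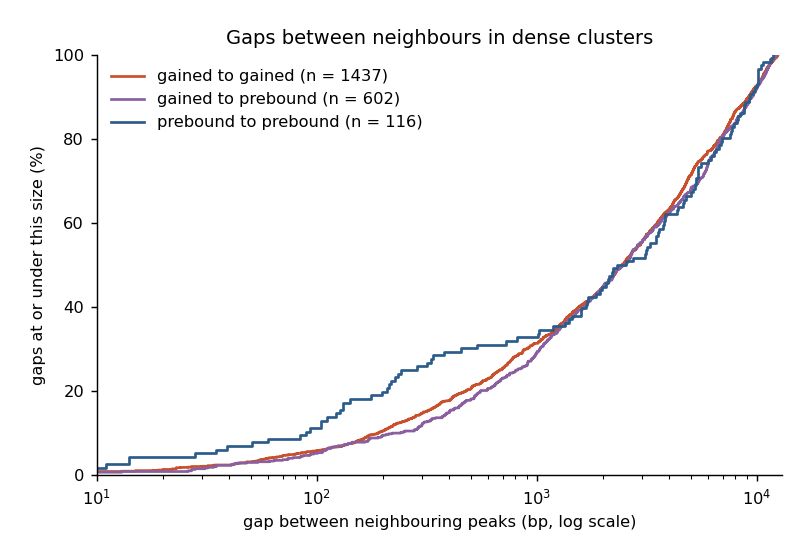
Lines give the percentage of gaps (vertical axis) at or under a size in bp (horizontal axis, log scale) between neighbouring estradiol peaks of dense clusters, by whether the neighbours are gained or prebound. The gained-to-gained and gained-to-prebound lines run together, with medians of 2451 and 2529 bp.

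The length difference was about as large among sites without close neighbours. A neighbour under 500 bp away was found for 630 of the 2039 sites (30.9%), whose median length was 275 bp, against 263 bp for the 1409 others. The median difference of 12 bp had an interval of -2.76 to 30.9 bp, and the mean difference of 15.5 bp one of 2.27 to 28.8 bp, so sites with a close neighbour were slightly longer on average. The 1128 sites with no estradiol peak within 1000 bp had a median of 263 bp, still 51 bp (41.8 to 59.2) above isolated gained sites. Joining peaks closer than 500 bp before clustering left 1307 gained sites in 245 clusters and a difference of 62 bp (medians 278 and 216 bp). A joined peak's length includes the gaps inside it, so that value is partly set by the joining and cannot show the difference apart from close neighbours.

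In mixed clusters the longest peak was more often prebound than gained when 1 shared bp made a peak prebound. That held for 163 of 251 mixed clusters (64.9%, 95% Wilson interval 58.9 to 70.6), although prebound peaks made up a mean of 27.7% of their estradiol peaks. A gained site was the longest in the other 88. In the 119 clusters with 1 prebound peak, that peak was the longest in 60 (50.4%, 41.6 to 59.2), where it made up a mean of 15.9% of the peaks. The median prebound length was above the median gained length in 221 mixed clusters (88.0%). The median within-cluster difference was 160 bp (143 to 182). A long estradiol peak meets a vehicle peak more easily than a short one, so these values are partly set by the rule. Requiring an overlap of 50% of both peaks turns away long estradiol peaks over short vehicle peaks. The longest peak was then prebound in 42.6% of 190 mixed clusters, where prebound peaks made up a mean of 24.7% of the estradiol peaks.

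The cluster with the most gained sites spanned 76.3 kb of chromosome 14 from 26276673 to 26352923. It held 24 gained sites of 101 to 714 bp (median 256 bp) and a single prebound peak of 431 bp, over a vehicle peak of 310 bp. The longest gained site stood at the left end, from 26276673 to 26277386, and the sites were separated by 228 to 7598 bp. This cluster was 1 of 4 within 100 kb of each other, from 26162747 to 26384802, which together held 39 gained sites and 2 vehicle peaks in 222 kb. Of the 41 estradiol peaks in this window, 39 were gained, against 81.0% of all peaks in dense clusters. The window was named because it holds the cluster with the most gained sites, so a high share is partly built in. On either side of it, clusters from 25987819 to 26055023 held 14 gained sites among 17 estradiol peaks, and those from 26526491 to 26636292 held 11 among 17.

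On chromosome 5 the clusters differed in how they related to vehicle binding. The cluster from 114020123 to 114086273 held 22 gained sites and 2 prebound peaks, the longer of them 990 bp. The vehicle peaks under these 2 were 200 and 206 bp long. Its longest gained site was 917 bp, from 114061592 to 114062508. The cluster from 35959535 to 36030082 held 15 gained sites and 6 prebound peaks, whose vehicle peaks were 185 to 488 bp. There the longest peak was a gained one of 872 bp, from 36015640 to 36016511, against 517 bp for the longest prebound peak, and the prebound peaks all lay in the left part of the cluster.

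A pair of neighbouring clusters on chromosome 5 had no vehicle peak at all. The first, from 125516321 to 125564363, held 11 gained sites of 154 to 538 bp. The second, from 125590616 to 125658014, held 16 gained sites of 100 to 1000 bp, the longest from 125621169 to 125622168. Together they placed 27 gained sites in 142 kb, and the nearest vehicle peak lay 90.5 kb from the second cluster and 184 kb from the first. Their median lengths were 236 and 231 bp, below the 265 bp of all clustered gained sites. The third largest cluster without a vehicle peak, on chromosome 11 from 98790613 to 98825223, held 10 gained sites with a median of 231 bp and a longest site of 728 bp, and its nearest vehicle peak lay 69.9 kb away.

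The remaining large clusters held between 11 and 15 gained sites each. On chromosome 1, the cluster from 92390010 to 92421457 held 15 gained sites and 1 prebound peak, packed at 5.09 peaks per 10 kb, and its prebound peak of 909 bp was longer than any gained site (650 bp at most). A second cluster of chromosome 1, from 93698747 to 93775718, held 12 gained sites and 3 prebound peaks at 1.95 per 10 kb. The cluster of chromosome 11 from 50456166 to 50534685 was the longest of all 363, with 14 gained sites and 1 prebound peak over 78.5 kb. On chromosome 4, 13 gained sites and 1 prebound peak of 810 bp lay from 114182902 to 114231489, and 12 gained sites and 2 prebound peaks from 150143282 to 150182852. The cluster of chromosome 15 from 83458800 to 83525863 held 13 gained sites and 6 prebound peaks, chromosome 11 from 104453688 to 104499059 held 12 and 3, and chromosome 16 from 35211094 to 35235212 held 11 and 2. In 6 of the 12 clusters with the most gained sites the longest peak was prebound, in 5 a gained site was longer than any prebound peak, and 1 had no prebound peak.

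**Figure D5:**
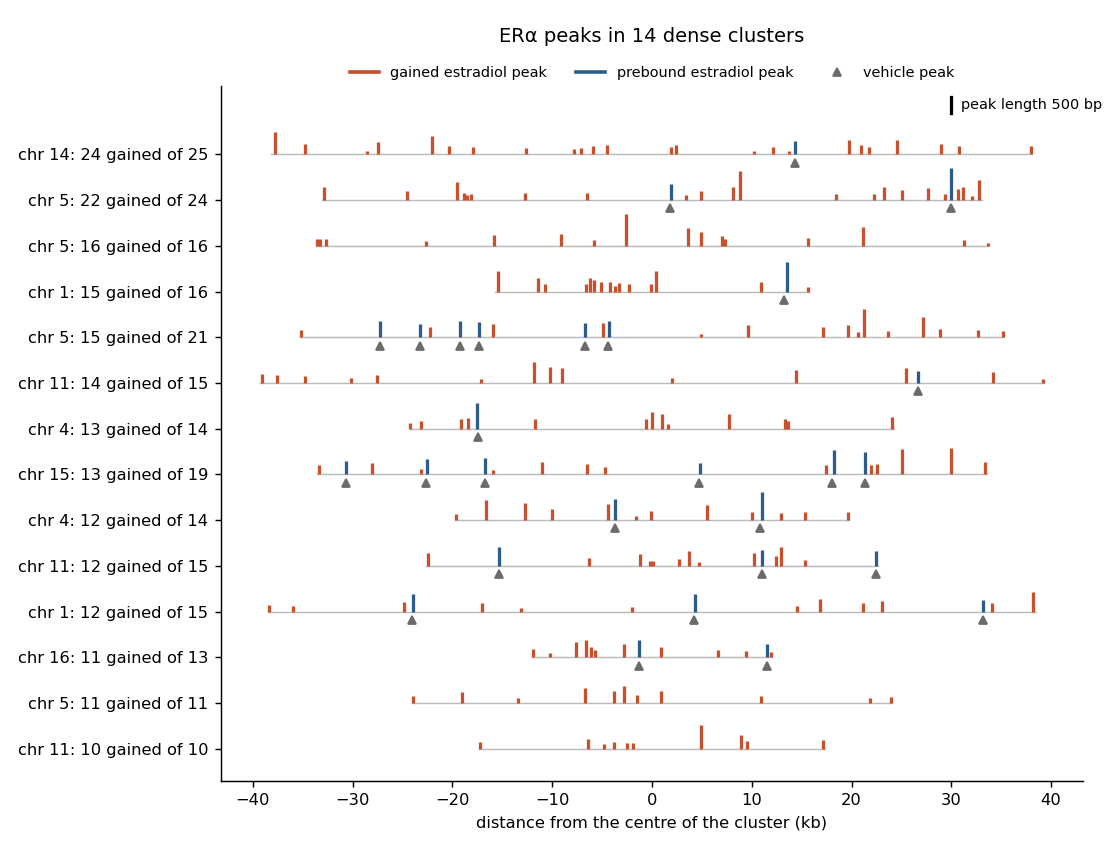
Each row is a dense cluster, the 12 with the most gained sites and then 2 others without a vehicle peak, drawn by distance from the cluster's centre in kb. The height of each line is the peak length against the 500 bp scale bar, and triangles mark vehicle peaks, of which the top row has 1 and the third row none.

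The 5 longest clustered gained sites lay in clusters with and without prebound peaks. The longest was 1136 bp, on chromosome 9 from 122086654 to 122087789, in a fully gained cluster of 6 whose nearest vehicle peak lay more than 1 Mb away (1297 kb from this site). The next, 1080 bp on chromosome 6 from 120937521 to 120938600, was also in a fully gained cluster of 6, 177 kb from a vehicle peak. A site of 1067 bp on chromosome 8 from 122595881 to 122596947 had 3 prebound peaks in its cluster of 12, the longest 747 bp. The fourth, 1039 bp on chromosome 12 from 81232997 to 81234035, had a single prebound peak of 247 bp among its 9. The fifth was the 1000 bp site of the chromosome 5 pair. Thus 3 of the 5 lay in fully gained clusters, which held 673 of the 2039 sites.

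Dense clusters themselves lay near each other in some regions. Another dense cluster was found within 100 kb of 94 of the 363 (25.9%), which formed 40 groups holding 604 gained sites, and 9 of these groups had 3 or more clusters. After the chromosome 14 group, the most gained sites were in 4 clusters of chromosome 5 from 114020123 to 114358291 (34 gained sites and 6 vehicle peaks within the clusters) and in 5 clusters of chromosome 8 from 124413168 to 124767223 (31 gained sites and 5 vehicle peaks). These were chosen after their values were seen. The median distance between successive dense clusters of a chromosome was 1841 kb.

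The share of gained sites that were clustered ranged widely over the autosomes. Dense clusters held 21.0% of the gained sites of chromosome 12 (124 of 590, 95% interval with runs as units 13.6 to 28.5) and 20.7% of those of chromosome 8 (167 of 807, 14.2 to 27.2). On chromosome 13 the share was 7.35% (45 of 612, 2.63 to 12.1) and on chromosome 7 8.27% (62 of 750, 3.90 to 12.6). The overall density of chromosomes 12, 8, 13 and 7 was 6.29, 7.85, 7.01 and 6.31 estradiol peaks per Mb of the span between the first and last peak. These chromosomes are the extremes of 19, and the interval of each rests on few clusters, 24 on chromosome 12 and 9 on chromosome 13. The matching shares of all estradiol peaks were not computed by chromosome. Whether the range is particular to gained sites was therefore not tested. The median length of clustered gained sites lay between 233 and 290 bp on every autosome, above the 212 bp of isolated gained sites.

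Vehicle peaks without an estradiol counterpart were rare inside the clusters. Of the 507 vehicle peaks in dense clusters, 19 overlapped no estradiol peak (3.75%, 95% Wilson interval 2.41 to 5.78), spread over 16 clusters. In runs of 2 to 4 peaks, measured the same way between the first and last peak, the share was 3.32% (2.53 to 4.35), an interval that overlaps that of dense clusters. This window is drawn around estradiol peaks, so it favours vehicle peaks that overlap one. At isolated peaks it held 1719 vehicle peaks, and 0 of them lacked an estradiol peak. With 12.5 kb on either side of each run included, the share was 8.96% (48 of 536, 6.82 to 11.7) for dense clusters. It was 12.9% (11.3 to 14.6) for runs of 2 to 4 and 16.1% (331 of 2050, 14.6 to 17.8) for isolated peaks. A vehicle peak near several runs counts for each. Every run adds the same width of flank, but larger runs add more overlapped vehicle peaks of their own, so this order is partly built in. The 48 peaks belong to 363 clusters and the 331 to 7567 isolated peaks, so the shares do not show fewer such peaks around each dense cluster. Over all autosomal vehicle peaks the share was 28.7%, most of them outside any run. That share is not a like comparison for the 3.75% inside the clusters, which is partly set by the window.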

How the data were processed

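Chromatin immunoprecipitation and sequencing was done on mouse uterus. Of the 5 samples, the 2 ERα peak lists were used, and the other 3 libraries (RNA polymerase II and input) were not used here. The authors deposited each list as chromosome, start, end and name, on build mm9 per the file headers. The submitters' processing notes name mm9 and Partek. No source used here gives the aligner, peak caller, settings or control. The deposited lists hold no other values: no score or read count, so depth is unknown. Starts were read as counted from 0 and are printed counted from 1. The number in each peak name was not used.

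Length was end minus start. Overlap meant 1 shared bp, counted in Python 3.11.15 (numpy 2.4.6, pandas 2.3.3) and checked with bedtools 2.31.1. Intervals (scipy 1.17.1) are at 95%: Wilson for shares, exact binomial for medians, combined for median differences. The intervals of median lengths and their differences take peaks of the same run as independent. Those of mean differences sum errors over runs, and length ratios were fitted with statsmodels 0.14.6. They cover variation between peaks of these libraries only. With 1 library per condition no p-value is given. The code was tested on simulated data. The clusters named are the 12 with the most gained sites, the 3 largest without a vehicle peak, and the clusters of the 5 longest sites. Members and comparisons were chosen with earlier results of these data known. Gene assignment, gene lists and motifs were not carried out: the reference tables used here are on GRCm38, another build.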

Additional observations from a re-analysis of the deposited data

How the results depend on the processing

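The number of clustered gained sites depends on the definition: 747 with gaps under 5000 bp, 3863 with gaps under 25000 bp, 816 in runs of at least 8 peaks, 1307 with peaks closer than 500 bp joined and 619 among the longer 50% of each list, against 2039. Gaps under 12000 or 13000 bp gave 1970 and 2136. The median length difference from isolated gained sites stayed above 0 in all 10 alternatives tried. It left the interval of the first value with gaps under 25000 bp (45 bp), runs of at least 8 peaks (61.5 bp), a reciprocal overlap of 50% (61 bp) and joined peaks (62 bp). The length of a joined peak includes the gaps inside it. The share of mixed clusters whose longest peak is prebound was 58.8% in runs of at least 8 peaks and 42.6% with the reciprocal overlap, and lay between 59.8% and 68.3% in the other 5. The excess of gained peaks in clusters over isolated peaks was 6.96 points with the reciprocal overlap and 0.093 points with vehicle peaks up to 500 bp away counted. Among the longer 50% of each list it was 1.64 points (-1.71 to 5.00), and otherwise it lay between 2.91 and 4.32 points. The alternatives on the last 2 results, and 6 of those on length, were chosen after seeing the data. No paired analysis was possible because each condition has 1 library, and none could be left out. The alternatives on motifs, gene starts and gene lists were not run. Peak length may grow with read depth and the caller's settings, which are unknown here.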
